A study of Mus musculus with 12 samples.

Results

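Iron handling and hepcidin were followed in the livers of mice given Con A, a lectin from jack beans that drives T cells to attack the liver, with or without hWJ-MSCs, mesenchymal stromal cells of the human umbilical cord. The members were 10 genes taken by name: Hamp (hepcidin), Hfe2 (hemojuvelin), Bmp6, Tfr2, Tfrc (transferrin receptor 1), Trf (transferrin), Fth1 and Ftl1 (the ferritin chains), Slc40a1 (ferroportin) and Lcn2 (lipocalin 2). Of these, 9 were found among the 11289 genes of the table, and Bmp6 was not among them under this name. Liver RNA of 12 C57BL/6J mice was sequenced, with 4 mice per group. The Control mice carry no treatment in the labels. The Con A + PBS mice received Con A at 15 mg/kg into the tail vein and, 30 min later, PBS alone. The Con A + hWJ-MSCs mice received the same Con A and, 30 min later, stromal cells in PBS. Livers were taken 24 h after Con A. The labels give 2000000 cells per mouse and an age of 8 to 10 weeks, and the study's methods state other numbers for both. The methods state that male mice were used.

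Hepcidin is a peptide hormone made by hepatocytes. It binds ferroportin, the only known iron exporter of mammalian cells, and causes its degradation, so that iron stays inside macrophages and enterocytes. Its transcription is raised by BMP signalling, which senses iron through hemojuvelin, HFE and TFR2, and by IL-6 through STAT3. Within cells, iron regulatory proteins bind hairpins called iron responsive elements, holding back translation of the ferritin and ferroportin mRNAs and stabilizing the Tfrc mRNA when iron is scarce. In the acute phase response the liver also secretes proteins that keep iron and heme from microbes, among them lipocalin 2, haptoglobin and hemopexin.

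The deposited values were whole numbers already normalized between mice, and the depth behind them is unknown. Their totals differed by 0.0425% of the median across mice. The largest value, 341028, was held by 10 genes in every mouse, and the values below it also came in sets of 10 that were the same in every mouse. The table thus behaved as 10 strata of genes in which a value gives the rank of a gene within its stratum, readable for the top 80 ranks, down to a value of 2805. In 7 strata, those of Trf and of Ftl1 with Lcn2 among them, 79 or 80 of these ranks were held by exactly 1 gene in every mouse. In 1 stratum this was so for 62 to 68 ranks, and 2 strata, which hold Hamp and Fth1, had the same values and could not be separated. A high value therefore moves when other genes of its stratum pass it, levels of different genes are not on a common scale, and gene levels are compared only between mice. For the same reason the summed values of marker genes given here, which the highest members of a list dominate, are set side by side between mice only as a description, beside the counts of markers called. Con A + PBS replicate 4 stood apart, with 973 genes more than 2-fold from the mean of its group against 110 to 430 in the other mice, and calls that change without it are given both ways. The 10 hepatocyte markers were all present. After Con A 5 were called lower, against 19.2% of all genes, and 4 with the cells against Control, where 13.1% of all genes were called lower. The summed values of these markers were 1299523 to 1539050 in Control, 749661 to 789444 with PBS and 758195 to 845593 with the cells. Their part in the genes of hepatocytes that fell, such as Hfe2, Tmprss6 and those of heme synthesis, was not tested. Log2 fold changes and standard errors (SE) are from limma on log2(value + 1) over all genes, and calls needed both more than a 1.5-fold difference and less than 0.05 for the p adjusted by Benjamini-Hochberg.

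After Con A alone, Lcn2 and Fth1 rose while Ftl1, Slc40a1 and Hfe2 fell, so 5 of 9 members were called (2 higher, 3 lower). Of all genes tested, 38.8% were called in this comparison, 19.5% higher and 19.2% lower. The groups did not overlap in the same 5 members, against 50.4% of all genes. With hWJ-MSCs after Con A, 2 of 9 members were called against Con A + PBS, Hfe2 higher and Trf lower, where 8.58% of all genes were called (4.2% higher, 4.38% lower) and 23.5% did not overlap. These counts were unstable: with single mice left out, 1 to 3 members and 7 to 1575 of all genes were called. Against Control, the Con A + hWJ-MSCs group had 7 of 9 members called, Hamp, Lcn2, Tfrc and Fth1 higher and Trf, Slc40a1 and Ftl1 lower, where 26.7% of all genes were called (13.6% higher, 13.1% lower). Groups did not overlap in 4 members there, against 37.9% of all genes. The median log2 fold change of the members was 0.00 after Con A, 0.12 with the cells against Con A + PBS and 0.09 with the cells against Control, and that of all genes was 0.05, 0.00 and 0.04. The 3 comparisons share groups of mice and are not independent.

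**Figure D1:**
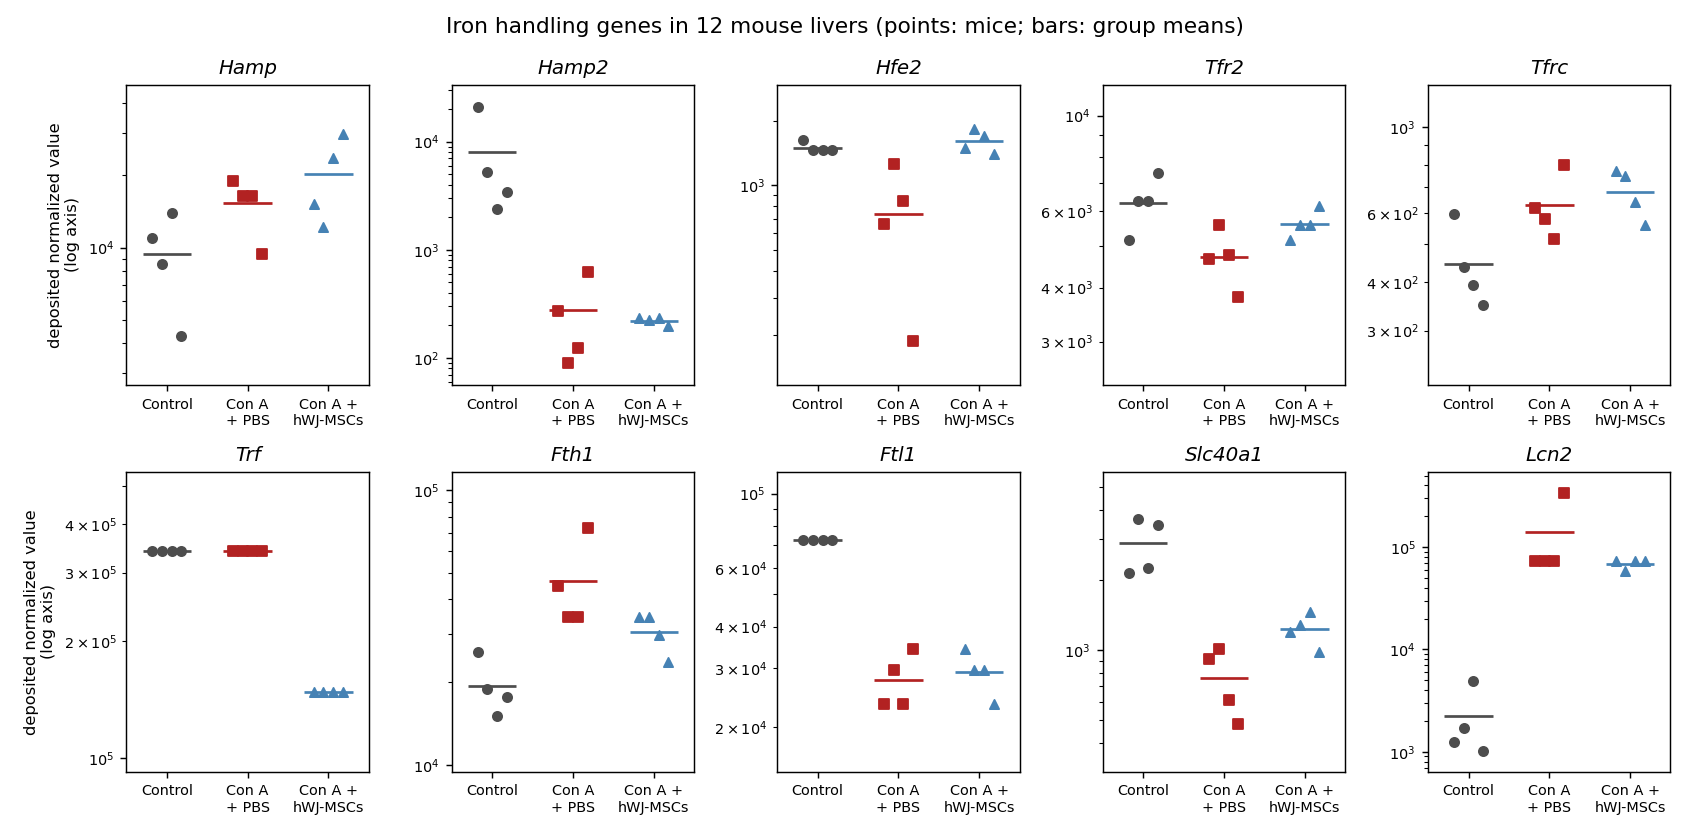
Deposited normalized values (log axis, each panel on its own scale) of the 9 members and of Hamp2 in the 3 groups, with 1 point per mouse and bars at the group means (n = 4). Lcn2 lies far above Control in both Con A groups, Hamp2 far below, and Slc40a1 is at 2147 to 3652 in Control against 481 to 1017 in Con A + PBS, while Hamp overlaps between all groups.

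Hamp, the hepcidin gene (chr7:30942371-30944017, minus strand, mm10), had a close copy in the table, Hamp2 (chr7:30922372-30924181, minus strand), a mouse gene next to it whose peptide is not known to control iron export. The promoters are shown because hepcidin is controlled there by the BMP and STAT3 inputs. The windows are the 250 bases before the RefSeq start in GRCm38.p6, chr7:30944030-30944279 for Hamp and chr7:30924182-30924431 for Hamp2, read on the minus strand. Capitals mark matches to GGCGCC, a core of the BMP response element, and to TTCNNNGAA, a STAT motif, both searched on both strands.
Hamp: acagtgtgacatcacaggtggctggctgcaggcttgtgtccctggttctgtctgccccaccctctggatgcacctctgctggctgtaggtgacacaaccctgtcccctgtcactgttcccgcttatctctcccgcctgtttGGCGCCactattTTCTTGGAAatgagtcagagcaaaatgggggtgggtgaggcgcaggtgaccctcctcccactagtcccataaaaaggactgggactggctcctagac
Hamp2: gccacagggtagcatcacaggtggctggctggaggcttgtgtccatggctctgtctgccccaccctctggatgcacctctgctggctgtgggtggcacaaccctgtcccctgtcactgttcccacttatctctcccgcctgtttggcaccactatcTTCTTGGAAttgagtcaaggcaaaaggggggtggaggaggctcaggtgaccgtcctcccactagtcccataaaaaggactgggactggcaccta
The windows were identical at 89.7% of aligned positions. Both held the STAT match, which began 97 bases before the start in Hamp and 94 in Hamp2. The BMP match, 109 bases before the start, was found in Hamp and in no position of the Hamp2 window. A STAT match was present in 7.02% of 32851 RefSeq promoter windows of this length, a GGCGCC match in 9.59% and both in 0.368%. A promoter window was given for 7 of the 10 members. Among the others, that of Tfrc held GGCGCC, those of Tfr2 and Ftl1 an NF-kB motif (in 7.25% of all windows), and that of Bmp6 an E-box (6.02%) and an antioxidant response element (10.2%). Matches describe the letters only.

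The Hamp values were 10972, 8544, 13961 and 4291 in the Control mice, 18948, 16364, 16364 and 9428 after Con A with PBS, and 15125, 12230, 23652 and 29712 after Con A with hWJ-MSCs. Control replicate 4 was the lowest of all mice and the 2 highest received the cells, but every pair of groups overlapped. Hamp was 0.77 higher (SE 0.37) on the log2 scale after Con A, which did not pass the test (adjusted p = 0.0932, limma). It did pass without Con A + PBS replicate 4 (0.99, limma adjusted p = 0.0422) and without Control replicate 3 (1.00, limma adjusted p = 0.0427). The other 10 of 12 fits with a single mouse removed did not call it, and without Control replicate 4 it was 0.44 (limma adjusted p = 0.279). With hWJ-MSCs Hamp was called against Control (1.13, SE 0.37, adjusted p = 0.0273, limma) and not against Con A + PBS (0.36, SE 0.37, adjusted p = 0.513, limma). The exact permutation test, which uses no spread of other genes, gave p = 0.0571 for the difference from Control. The call against Control was lost when any 1 of Control replicates 2 and 4 or Con A + hWJ-MSCs replicates 3 and 4 was left out, with log2 fold changes of 1.13, 0.80, 1.03 and 0.92.

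Hamp2 moved the other way. Its values were 20917, 5256, 2362 and 3452 in Control, 274, 90, 125 and 621 after Con A with PBS, and 234, 224, 232 and 196 with hWJ-MSCs. The lowest Control mouse stood above the highest mouse given Con A, and Control replicate 1 stood well above the other Control mice. The log2 fold change was -4.70 (SE 0.64, limma adjusted p = 7.4e-05) after Con A and -4.62 (limma adjusted p = 1.7e-04) with the cells against Control, and 0.08 between the Con A groups (limma adjusted p = 0.946). Without Control replicate 1 they were -4.06 and -3.98, both still called. The transcripts listed for the genes were identical at 92.4% of aligned positions, so how the authors' counting split reads between them is uncertain.

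Hfe2 (chr3:96525185-96529216, plus strand) encodes hemojuvelin, the BMP co-receptor that hepatocytes need to switch on hepcidin. Its values were 1624, 1467, 1458 and 1458 in Control, 658, 1257, 842 and 188 after Con A with PBS, and 1502, 1838, 1692 and 1402 with hWJ-MSCs. Every Con A + PBS mouse lay below every mouse of the other groups, which overlapped with each other. Hfe2 fell after Con A (-1.32, SE 0.42, limma adjusted p = 0.0177) and was higher with the cells than with PBS (1.41, SE 0.42, limma adjusted p = 0.0468), where the exact permutation test gave p = 0.0286 in each case, the smallest it can give for 4 mice against 4. Between the cell-treated and Control mice the log2 difference was 0.09 (SE 0.42, limma adjusted p = 0.878). Con A + PBS replicate 4 held the lowest value, and without it the log2 fold changes were -0.76 after Con A and 0.85 with the cells, both still called. The call with the cells was close to the threshold, and 9 of 12 fits with a single mouse removed did not give it (adjusted p of 0.0543 to 0.117), with log2 fold changes of 0.85 to 1.76 over the 12 fits.

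Tfr2 (chr5:137569851-137587481, plus strand), the receptor through which hepatocytes sense transferrin-bound iron, was at 5144, 6329, 6329 and 7356 in Control, 4663, 5576, 4748 and 3810 after Con A with PBS, and 5144, 5576, 5576 and 6164 with hWJ-MSCs. The groups overlapped throughout. Its log2 difference of -0.42 after Con A (SE 0.14, limma adjusted p = 0.0214) was smaller than the 1.5-fold limit, and those with the cells were 0.27 against Con A + PBS and -0.16 against Control (limma adjusted p = 0.193 and 0.399).

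The other hepcidin control genes were a list of 33, of which 28 were in the table. After Con A 9 were called higher, 7 lower, Hamp2 among them, and 12 not, where 19.5% of all genes were called higher and 19.2% lower. Without Con A + PBS replicate 4 Bmpr1a (0.62) and Smad6 (-0.61), both not called with all mice, passed as well (limma adjusted p = 0.00105 and 0.0161). The called genes lay on both sides of the BMP pathway. Bmp2, an endothelial BMP ligand that acts on hepcidin, fell by 2.48 on the log2 scale (SE 0.31, limma adjusted p = 4.25e-05). Tmprss6, the protease that cleaves hemojuvelin and so restrains hepcidin, fell by 1.51 (SE 0.23, limma adjusted p = 1.53e-04), from 5730 to 8890 in Control to 1644 to 3740. Smad9 fell by 1.57, while Id1, a direct target of BMP signalling, rose by 1.61 and Inhbb, which encodes the subunit of activin B, rose by 2.23. Also called higher were Id2 (0.86), Id3 (0.91), Atoh8 (0.60, in 8 of 12 fits with a single mouse removed) and Creb3l3 (0.97). Hfe (-0.99, limma adjusted p = 8.07e-05) and Cebpa (-0.90) were also called lower. Of the STAT3 arm, Socs3, a feedback inhibitor induced by STAT3, rose by 2.15 (limma adjusted p = 2.78e-04). Stat3 itself rose by 1.00 (limma adjusted p = 0.00237). The IL-6 receptor gene Il6ra fell by 0.64 (limma adjusted p = 0.0458), a call made in 6 of 12 fits with a single mouse removed, and Il6st, its signalling partner, was at 0.16 (limma adjusted p = 0.425). With the cells, 1 of the 28 was called against Con A + PBS, where 8.58% of all genes were called. This was Il22ra1, a receptor chain for IL-22, called higher after Con A (1.47) and lower with the cells than with PBS (-1.34, limma adjusted p = 0.0369). The call with the cells was made in 6 of 12 fits with a single mouse removed. It was lost without Con A + PBS replicates 1, 3 or 4 or Con A + hWJ-MSCs replicates 1, 2 or 3 (-1.32 without Con A + PBS replicate 4, limma adjusted p = 0.0774). The sinusoidal endothelial markers, whose cells make Bmp2, fell too: 7 of 10 were lower after Con A and 1 higher, against 19.2% and 19.5% of all genes. The summed values of these markers were 3693 to 5267 in Control, 1733 to 2483 with PBS and 2080 to 2810 with the cells. Their part in the Bmp2 result was not tested. In whole liver RNA, fewer cells of a type and less RNA per cell cannot be told apart.

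The iron responsive elements of the members are shown because they divide the genes by the way iron acts on their mRNA. They were searched in the 10132 coding transcripts of the table that GENCODE M21 holds, as a bulged C, 5 bases of stem and the loop CAGTGN, read 5′ to 3′, with the 5 stem bases pairing with the 5 bases beyond the loop, G with T (G with U in the mRNA) included. Each is given with 6 further bases at either end, in GRCm38, and the capitals mark the loop CAGTGN.
Fth1, 5′ UTR, chr19:9982732-9982760, plus strand: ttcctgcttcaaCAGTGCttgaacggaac
Ftl1, 5′ UTR, chr7:45459779-45459807, minus strand: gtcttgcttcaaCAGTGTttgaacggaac
Slc40a1, 5′ UTR, chr1:45925465-45925493, minus strand: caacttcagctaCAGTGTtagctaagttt
Tfrc, 3′ UTR, chr16:32631219-32631247, plus strand: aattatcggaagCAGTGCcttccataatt
Tfrc, 3′ UTR, chr16:32631598-32631626, plus strand: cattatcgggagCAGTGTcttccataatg
Tfrc, 3′ UTR, chr16:32631663-32631691, plus strand: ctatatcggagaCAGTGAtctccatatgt
Tfrc, 3′ UTR, chr16:32631710-32631738, plus strand: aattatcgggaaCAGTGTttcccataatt
A match in the 5′ UTR was found in 13 transcripts (0.128%) and one in the 3′ UTR in 62 (0.612%). Tfrc was the 1 transcript with more than a single match in its 3′ UTR, where it had 4. Of the 3 members with a match in the 5′ UTR, Fth1 rose after Con A and Ftl1 and Slc40a1 fell.

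Fth1 (chr19:9982703-9985092, plus strand) encodes the ferritin heavy chain, which oxidizes iron for storage. Its values were 25838, 18948, 15125 and 17674 in Control, 44696, 34419, 34419 and 72783 after Con A with PBS, and 34419, 34419, 29712 and 23652 with hWJ-MSCs. All Con A + PBS mice lay above all Control mice, and the cell-treated mice overlapped with both. Fth1 rose after Con A (1.22, SE 0.25, limma adjusted p = 0.00129). With the cells it was 0.55 lower than with PBS on the log2 scale (-0.55, SE 0.25, limma adjusted p = 0.135), which did not pass. Over the 12 fits with a single mouse removed this difference was -0.67 to -0.31. Against Control, Fth1 was 0.67 higher with the cells (limma adjusted p = 0.0478, exact permutation test p = 0.0571). That last call was absent from 7 of 12 fits with a single mouse removed, which were without Control replicates 2, 3 or 4, Con A + PBS replicate 1, or Con A + hWJ-MSCs replicates 1, 2 or 3.

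Ftl1 (chr7:45457944-45459884, minus strand), the ferritin light chain, which favours deposition of the iron core, was at 72682 in all 4 Control mice. It was at 23556, 29636, 23556 and 34316 after Con A with PBS and at 34316, 29636, 29636 and 23556 with the cells. Every mouse given Con A lay below every Control mouse, and the Con A groups overlapped. The log2 fold change was -1.41 after Con A (SE 0.16, limma adjusted p = 2.09e-05), -1.32 with the cells against Control (limma adjusted p = 6.36e-05) and 0.08 between the Con A groups (limma adjusted p = 0.744). Both ferritin genes have processed pseudogenes in the mouse genome and Saa1 and Saa2 are close copies, so how the authors' counting split such reads is uncertain. The values of Ftl1 are ranks in a stratum that it shares with Lcn2, Saa1 and Saa2. Ftl1 stood at rank 3 in every Control mouse, behind Apoe and Apoa1, and at ranks 6 to 9 in the mice given Con A. Lcn2, Saa1 and Saa2 were below Ftl1 in all 4 Control mice and above it in all 8 mice given Con A, and Lrg1 was above it in 3 mice of each Con A group. With these 3 genes taken out of the stratum, an alternative chosen after seeing the data that can only raise it, Ftl1 stood at ranks 3 to 6 after Con A, the log2 fold change against Control was -0.62 with PBS (limma adjusted p = 0.0682) and -0.43 with the cells (limma adjusted p = 0.222), and neither was called.

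**Figure D2:**
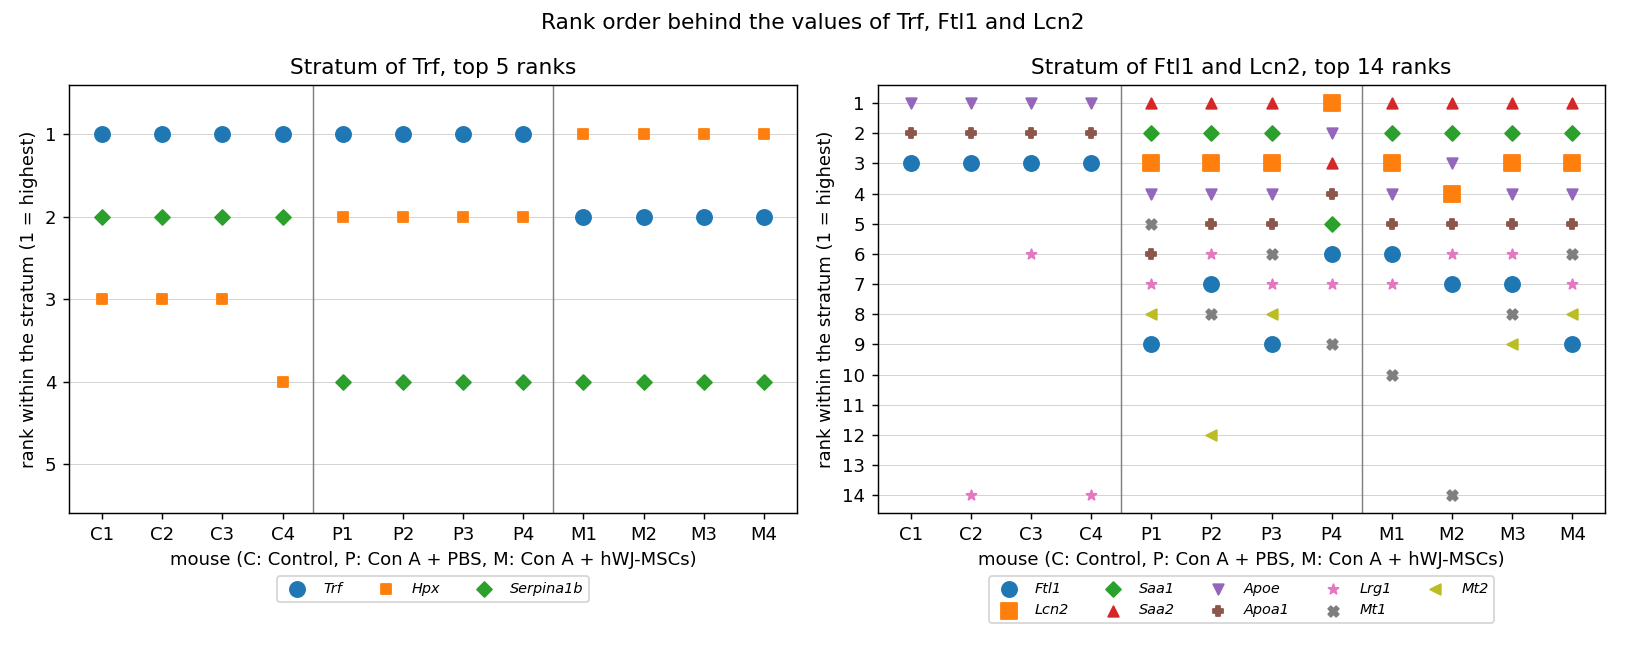
Rank within the stratum (1 = highest) of Trf, Ftl1, Lcn2 and other genes of their strata, in each of the 12 mice (C, Control; P, Con A + PBS; M, Con A + hWJ-MSCs). Trf is at rank 1 in the Control and Con A + PBS mice and at rank 2, behind Hpx, in the 4 mice given hWJ-MSCs (top 5 ranks shown), and Ftl1 goes from rank 3 to ranks 6 to 9 as Saa1, Saa2 and Lcn2 enter above it (top 14 ranks shown).

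Slc40a1 (chr1:45908068-45925582, minus strand), ferroportin, through which iron leaves Kupffer cells and other cells, was at 2147, 3652, 2245 and 3452 in Control. It was at 920, 1017, 612 and 481 after Con A with PBS and at 1198, 1285, 1462 and 982 with hWJ-MSCs. The mice given Con A all lay below the Control mice, and the cell-treated mice were above the Con A + PBS mice except for replicate 4, which lay below the highest of them. Ferroportin fell by 1.94 on the log2 scale after Con A (SE 0.25, limma adjusted p = 4.64e-05) and was 1.19 lower than Control with the cells (-1.19, SE 0.25, limma adjusted p = 0.00246). The difference between the Con A groups was 0.75 (SE 0.25, limma adjusted p = 0.0606). It was called when Con A + PBS replicate 2 was left out (0.91, limma adjusted p = 0.0292) and in no other fit with 1 mouse less. The Kupffer cell markers fell with it: all 10 in the table, where Adgre1 was missing, were lower after Con A, against 19.2% of all genes. The summed value of these markers was 5884 to 9356 in Control, 869 to 1694 with PBS and 735 to 2192 with the cells. Their part in the Slc40a1 result was not tested.

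Tfrc (chr16:32608920-32632794, plus strand), through which cells take up transferrin-bound iron, was at 597, 436, 392 and 348 in Control, 618, 580, 516 and 800 after Con A with PBS, and 768, 746, 643 and 560 with hWJ-MSCs. Control replicate 1 overlapped with both Con A groups, and the other Control mice were below them. The log2 fold change after Con A was 0.51 (SE 0.18, limma adjusted p = 0.0271), under the 1.5-fold limit, and it was called without Control replicate 1 (0.67) or Con A + PBS replicate 3 (0.60). With the cells it was called against Control (0.63, SE 0.18, limma adjusted p = 0.0138), where the exact permutation test gave p = 0.0571. The fold was below the limit without Control replicates 3 or 4 or Con A + hWJ-MSCs replicates 1 or 2 (0.53 to 0.58), and with a pseudocount of 100 (0.53). Between the Con A groups it was 0.12 (limma adjusted p = 0.662).

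Trf (chr9:103204001-103230273, minus strand), transferrin, the iron carrier of plasma secreted by hepatocytes, held the largest value of the table, 341028, in all 4 Control and all 4 Con A + PBS mice, and 147377 in all 4 mice given hWJ-MSCs. Within groups there was no spread at all, and the cell-treated mice did not overlap with the others. The log2 fold change was -1.21 (SE 0.15) against each, with a limma adjusted p of 0.00882 against Con A + PBS and 6.84e-05 against Control. Since Trf had no spread of its own, this SE and these p values rest on the spread that limma borrows from other genes. The change was a step of 1 rank. Hpx, hemopexin, the heme carrier of plasma, was at ranks 3 or 4 in Control, 2 in every Con A + PBS mouse and 1 in every mouse given the cells, where Trf was second. Hpx was the 1 gene of the stratum that passed Trf, and without it, necessarily, the value of Trf was 341028 in all 12 mice and the log2 fold change 0.00. The order of Trf and Hpx was thus reversed in 4 of 4 mice given the cells and in 0 of 4 given PBS, and the size of the change in Trf cannot be read from these values.

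**Figure D3:**
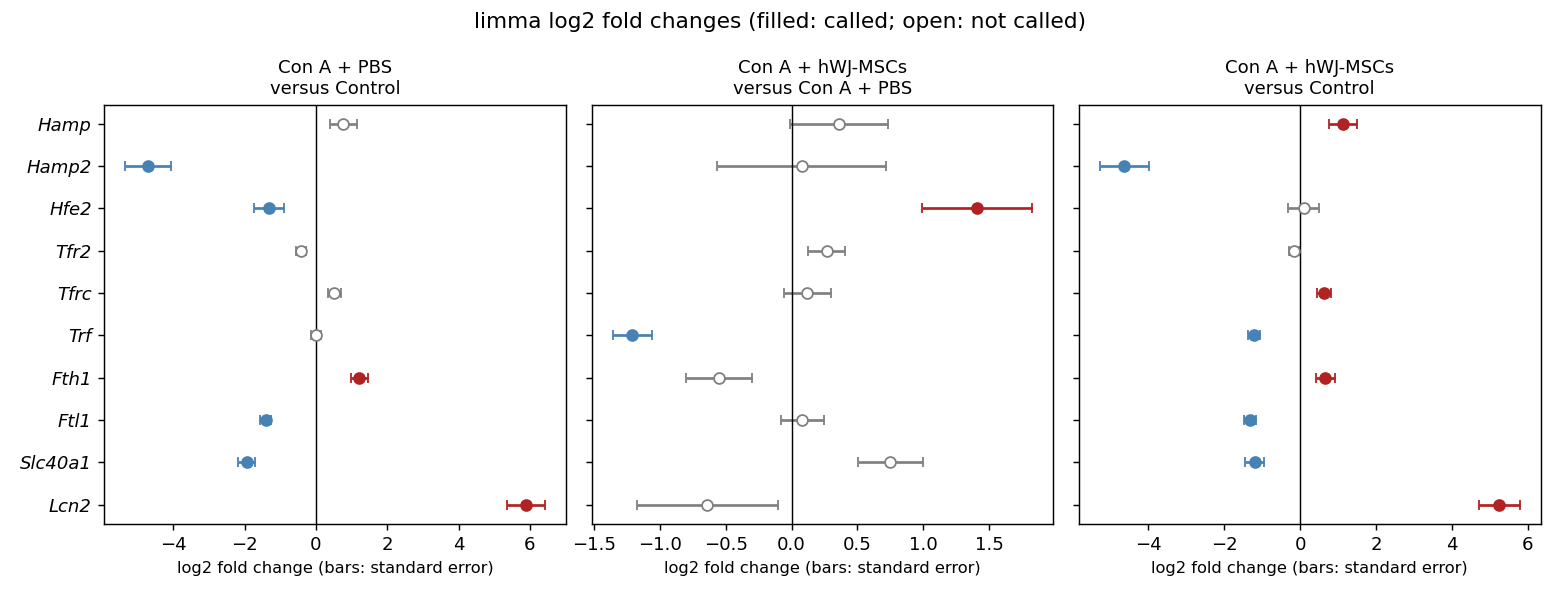
Log2 fold changes from limma on log2(value + 1), with standard errors, of the 9 members and of Hamp2 in the 3 comparisons (4 mice against 4, each panel on its own scale, filled points called). Con A shifts Lcn2 by 5.89 and Hamp2 by -4.70, and between the Con A groups Hfe2 (1.41) and Trf (-1.21) are the called genes.

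Lcn2 (chr2:32384633-32387722, minus strand; the transcript listed is annotated as a processed transcript of the protein-coding gene) encodes a secreted lipocalin that binds the iron-carrying siderophores of bacteria. It was at 1244, 1714, 4920 and 1020 in Control, 72682, 72682, 72682 and 341028 after Con A with PBS, and 72682, 58038, 72682 and 72682 with hWJ-MSCs. Control replicate 3 was the highest Control mouse, and the lowest mouse given Con A was far above it. Lcn2 rose by 5.89 on the log2 scale after Con A (SE 0.53, limma adjusted p = 3.5e-06) and by 5.25 with the cells against Control (limma adjusted p = 1.75e-05). Between the Con A groups it was -0.64 (SE 0.53, limma adjusted p = 0.414), and -0.08 without Con A + PBS replicate 4, the 1 mouse in which Lcn2 held rank 1 of its stratum. In the other mice given Con A it held ranks 3 or 4, so the values are near the top of the scale and differences there are differences in rank. The neutrophil markers rose with it: 8 of the 11 listed were in the table and all 8 were called higher after Con A, against 19.5% of all genes. The summed values of these markers were 73 to 163 in Control, 1268 to 2166 with PBS and 885 to 1875 with the cells. The markers Ly6g, Camp and Elane were not in the table. The part of neutrophils in the Lcn2 result was not tested.

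**Figure D4:**
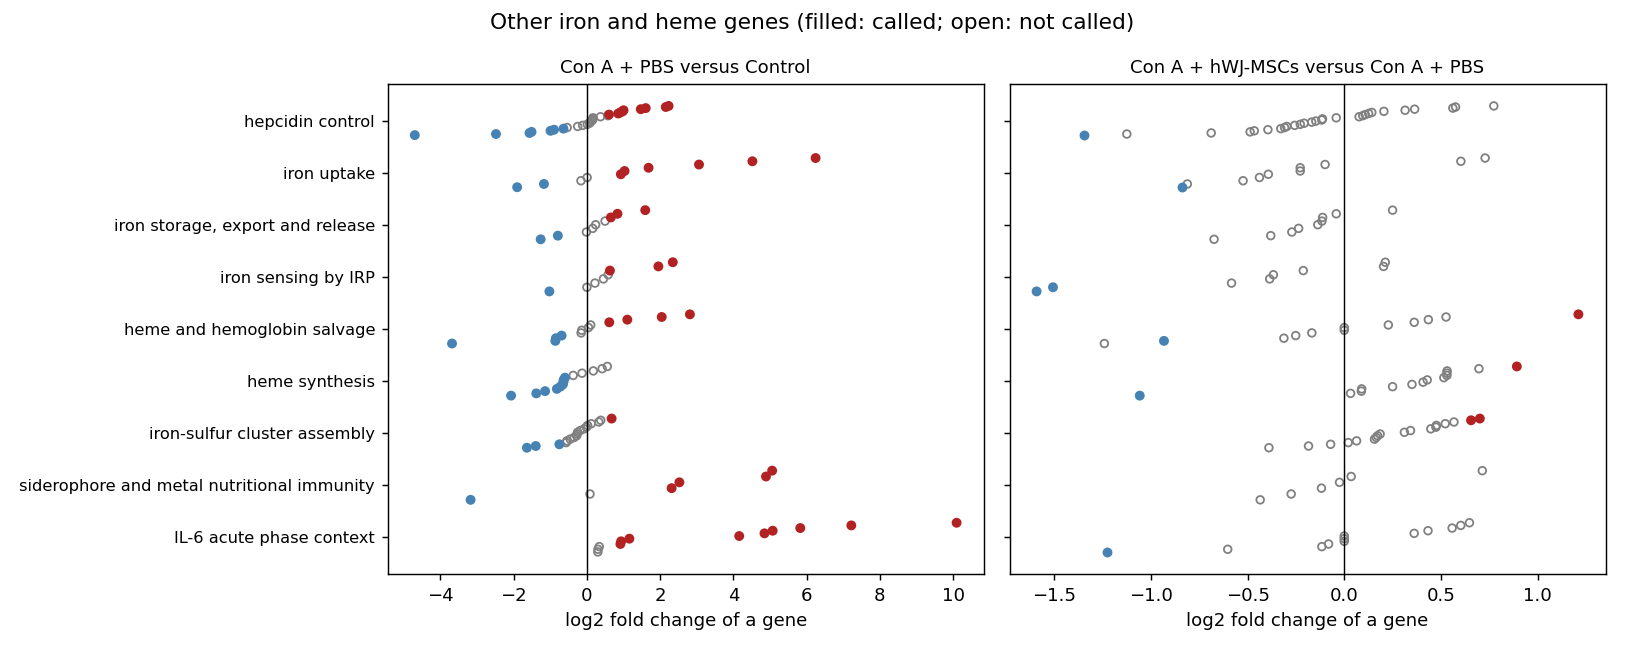
Log2 fold change of each gene of the 9 other iron lists (1 point per gene, filled when called) after Con A (left) and with hWJ-MSCs against Con A + PBS (right), each panel on its own scale. After Con A 68 of 117 genes are called, 9 of 14 heme synthesis genes all on the lower side, and with the cells 11 of 117.

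The rest of iron and heme metabolism was described with 9 lists of 135 genes, of which 117 were in the table and 68 (58.1%) were called after Con A, 39 higher and 29 lower, where 38.8% of all genes were called, and 65 without Con A + PBS replicate 4 (62 of them the same genes). Against Control with the cells 45 (38.5%) were called, where 26.7% of all genes were called, and without that mouse Egln3 (0.84) and Hmox1 (0.80) were added (limma adjusted p = 0.0158 and 0.00924). With hWJ-MSCs 11 (9.4%) were called against Con A + PBS, 4 higher and 7 lower, close to the 8.58% of all genes. That count moved between 1 and 23 when single mice were left out, with 1 gene without Con A + PBS replicate 1 or without Con A + hWJ-MSCs replicates 2 or 3. It was 5 without Con A + PBS replicate 4, where Hpx, Hif1a, Egln3, Bach1 and Alad stayed called and Il22ra1, Slc39a14, Alas1, Cebpb, Cisd1 and Fdxr were lost, and it was 6 without Con A + hWJ-MSCs replicate 1, 19 without replicate 4 of that group and 23 without Con A + PBS replicate 2.

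Of 10 iron uptake genes 6 rose and 2 fell after Con A, where 19.5% of all genes were called higher and 19.2% lower. Slc39a14, which carries iron that is not bound to transferrin into hepatocytes, went from 3227 to 6036 in Control to 12210 to 18917 (1.68, limma adjusted p = 1.14e-04), and was lower with the cells than with PBS (-0.84, limma adjusted p = 0.0452). That call was made in 4 of 12 fits with a single mouse removed, and lost without the mice named for Il22ra1 or without Control replicates 2 or 3 (-0.73 without Con A + PBS replicate 4, limma adjusted p = 0.103). Its relative Slc39a8 fell by 1.17 on the log2 scale. Of the ferrireductases, Steap4 rose by 3.06 (limma adjusted p = 3.64e-06) and Steap3, which serves the transferrin cycle in erythroid cells, fell by 1.91. Scara5, a ferritin receptor, rose by 4.52, from 7 to 37 in Control to 301 to 629. Ltf, the lactoferrin of neutrophil granules, was listed at 0 in every Control mouse and at 62 to 82 after Con A with PBS.

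Among 9 genes of storage, export and release, 3 rose and 2 fell after Con A, where 19.5% of all genes were called higher and 19.2% lower. Cp, the ferroxidase ceruloplasmin that works with ferroportin, rose by 1.59 on the log2 scale (SE 0.24, limma adjusted p = 1.65e-04), from 34410 in all 4 Control mice to 72775 or 147932, so that its size too is one of steps near the top of the scale, and its relative Heph fell by 1.26. Ncoa4, the receptor for ferritin turnover, rose by 0.65, Tmem199 rose by 0.83 and Slc11a1, a metal carrier of phagosomes, fell by 0.79, a call made in 5 of 12 fits with a single mouse removed and lost without Control replicates 1, 2 or 3, Con A + PBS replicates 1, 3 or 4 (-0.59 without the last, limma adjusted p = 0.119) or Con A + hWJ-MSCs replicate 3. With the cells the log2 fold changes of the 9 genes against Con A + PBS lay between -0.67 and 0.25. None of the 9 was called by limma (3 at an unadjusted p below 0.05), where 8.58% of all genes were called.

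Of 8 genes of iron sensing, Hif1a, Egln3 and Epas1 rose after Con A and Aco1, which encodes iron regulatory protein 1, fell by 1.02 on the log2 scale. Of all genes, 19.5% were called higher after Con A and 19.2% lower. The call of Epas1 (0.63) was made in 6 of 12 fits with a single mouse removed, and lost without Control replicates 1 or 2 or any 1 of the Con A + PBS mice (adjusted p = 0.0599 without replicate 4 of these, and up to 0.113). Hif1a and Egln3 belong to the oxygen sensing pathway, whose hydroxylases use iron. Hif1a was at 674 to 969 in Control, 1893 to 9880 with PBS and 903 to 1541 with the cells, higher after Con A (1.95, limma adjusted p = 0.00169) and lower with the cells than with PBS (-1.59, SE 0.41, limma adjusted p = 0.0332). Egln3 was also higher after Con A (2.34) and lower with the cells (-1.51, limma adjusted p = 0.0268). Without Con A + PBS replicate 4 the differences between the Con A groups were -1.06 for Hif1a (limma adjusted p = 0.0342) and -1.13 for Egln3 (limma adjusted p = 0.0461), both called. Neither was called without Con A + PBS replicate 1 or without Con A + hWJ-MSCs replicates 2 or 3, nor Hif1a without replicate 1 of the latter group.

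Of 12 heme and hemoglobin salvage genes 4 rose and 4 fell after Con A, where 19.5% of all genes were called higher and 19.2% lower. The plasma carriers Hp, haptoglobin, and Hpx rose by 2.81 and 1.10 on the log2 scale, where Hp held the largest value of the table in all 8 mice given Con A, which limits its fold. Hmox1, which degrades heme, rose by 2.04 (SE 0.40, limma adjusted p = 9.36e-04). Cd163, the macrophage receptor for haptoglobin with hemoglobin, fell by 3.68 (limma adjusted p = 9.14e-06), as the Kupffer cell markers did. Blvrb fell by 0.86 and Ambp fell by 0.85, where Ambp took 147960, 72783 or 58210, neighbouring steps at the top of the scale, and its groups overlapped. With the cells Bach1, a heme-sensing repressor of Hmox1, was lower than with PBS (-0.93, limma adjusted p = 0.0246; -0.77 without Con A + PBS replicate 4, limma adjusted p = 0.0484), and Hpx was higher (1.21, limma adjusted p = 0.00882), the rank step described with Trf. Hpx was called in all 12 fits with a single mouse removed. It held 147377 in every Con A + PBS mouse and 341028 in every mouse given the cells, so removing a mouse could not move its fold. Bach1 was called in 9 of these fits, not without Con A + PBS replicate 1 or Con A + hWJ-MSCs replicates 2 or 3. Bach1 was 0.61 higher after Con A with all mice and not called without Control replicate 1 or Con A + PBS replicates 1 or 4 (0.45 without the last, limma adjusted p = 0.0611). Hmox1 was at 889 to 4557 with PBS and 530 to 844 with the cells, a difference of -1.24 that did not pass (limma adjusted p = 0.0552). Without Con A + PBS replicate 4 it was -0.75 (limma adjusted p = 0.0771).

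In heme synthesis 9 of 14 genes fell after Con A and the other genes were not called, where 19.2% of all genes were called lower, and the median log2 fold change of the list was -0.64. Alas2, the erythroid form of the first enzyme, went from 266 to 373 in Control to 64 to 78 (-2.07, limma adjusted p = 7.52e-07), and its 5′ UTR also held an iron responsive element match. The erythroid markers, a list that includes Alas2, fell as well, 6 of 6 in the table, against 19.2% of all genes called lower. The summed values of these markers were 4615 to 8521 in Control, 1966 to 3338 with PBS and 1659 to 2588 with the cells. Their part in the Alas2 result was not tested. Abcb6 fell by 1.38 on the log2 scale, and Alad, the second enzyme, fell by 1.14 (limma adjusted p = 4.10e-04). Alad was higher with the cells than with PBS (0.89, limma adjusted p = 0.0251), and Alas1, the hepatic form of the first enzyme, was lower (-1.06, limma adjusted p = 0.0352) at 1480 to 2004 against 2168 to 5925. Without Con A + PBS replicate 4 Alad was 0.73 (limma adjusted p = 0.0492) and still called, and Alas1 was -0.84 (limma adjusted p = 0.0791) and not. Alas1 was called in 6 of 12 fits with a single mouse removed, lost without the mice named for Il22ra1. Alad was not called without Con A + PBS replicate 1 or Con A + hWJ-MSCs replicates 2 or 3. After Con A alone, Urod (-0.55) and Abcb10 (-0.51) were below the fold limit without Con A + PBS replicate 4 and Cpox was called higher (0.64). Abcb10 was also lost without Control replicates 2, 3 or 4, and Ppox without Control replicate 1.

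Of 18 iron-sulfur cluster genes 3 fell and 1 rose after Con A, fewer than the 38.8% of all genes called. Cisd1, an iron-sulfur protein of the outer mitochondrial membrane, fell by 1.64 on the log2 scale, Fdx1 fell by 1.40 and Fdxr fell by 0.75, and Iba57 rose by 0.67, a call made in 9 of 12 fits with a single mouse removed and absent without Control replicate 1 or Con A + PBS replicates 1 or 4 (0.54 without the last, limma adjusted p = 0.0839). Fdxr was below the fold limit without Control replicate 1 (-0.57). Both genes called with the cells against Con A + PBS were higher, Cisd1 (0.66, limma adjusted p = 0.0362) and Fdxr (0.70, limma adjusted p = 0.027). Neither was called without Con A + PBS replicate 4 (0.53 and 0.61, limma adjusted p = 0.0827 and 0.0616), nor Cisd1 without the other mice named for Il22ra1, and the same held for Fdxr except for Con A + PBS replicate 3.

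Of the 6 genes for siderophores and the withholding of metals, 4 rose and 1 fell after Con A, where 19.5% of all genes were called higher and 19.2% lower. S100a8 and S100a9, which form the metal-binding calprotectin and are also on the neutrophil list, rose by 5.06 and 4.89 on the log2 scale. The metallothionein gene Mt2 rose by 2.52. Bdh2, which has been proposed to make a mammalian siderophore, fell by 3.18. In the acute phase list 9 of 12 genes rose and the other genes were not called, against 19.5% of all genes called higher. Saa3 was at 10.09, Saa2 at 7.22 and Saa1 at 5.83. Saa2, Orm1, Serpina3n, Fga and Fgb held the largest value of the table in at least 1 mouse given Con A, Fga in 3 Control mice and Fgb in 1 as well, so their folds, and whether Fga was called, are limited by the scale. With the cells Cebpb, a factor of the acute phase, was lower than with PBS (-1.23, limma adjusted p = 0.0375), and, as with Il22ra1, it was called in 6 of 12 fits with a single mouse removed and lost without the mice named there (-1.08 without Con A + PBS replicate 4, limma adjusted p = 0.0886).

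The genes whose log2 values followed Hamp, Lcn2 and Tfrc most closely over the 12 mice were found by Pearson's r, which is given as a description, since the mice share 3 groups. Ddah2 was closest to Hamp (r = 0.982), followed by Tomm6, Rer1, Hist2h3c2 and Ubxn4 at 0.927 to 0.918. Mmp7 was closest to Lcn2 (r = 0.991), followed by Cenpt, Irf9, Nhp2l1 and Dcakd at 0.981 to 0.976. Ctsl was closest to Tfrc (r = 0.944), followed by Senp6, Vdac2, Gm10094 and Snhg1 at 0.937 to 0.904. Among the members, Lcn2 and Slc40a1 ran in opposite directions over the 12 mice (r = -0.911), as did Tfr2 and Fth1 (r = -0.912), and Hamp and Slc40a1 less closely (r = -0.507).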

How the data were processed

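Poly-A RNA of 12 mouse livers (4 per group, assigned from the sample titles) was sequenced by the study. Per the submitters' processing notes, Bowtie2 2.2.1, RSEM 1.2.18 and mm10 were used, and the study's methods name DESeq2 for its own calls. The authors deposited a score per gene and mouse, a whole number that had been normalized across mice rather than a read count, by a step not given in the sources used here. Depth is thus unknown, and no counting error or floor can be given. Since the values are effectively ranks within strata, fold changes of high genes are steps in rank. A count test had been planned only for raw counts and was not run, and 0 columns were left out for want of a sample.

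Values were taken as log2(value + 1), with a pseudocount of 1, for a limma 3.58.1 fit in R 4.3.3 (lmFit and eBayes with a trend, 12 mice in one model, no covariates), with Benjamini-Hochberg adjustment over 11289 genes. Two-sided exact permutation tests and summaries used Python 3.11.15, numpy 2.4.6, pandas 2.3.3, scipy 1.17.1 and matplotlib 3.10.9. The fit was tested on simulated data.

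The members and lists were chosen with earlier results of these data known. From each list the text names up to 3 called genes in each direction per comparison with the largest change, for Hamp, Lcn2 and Tfrc the 5 genes with the highest r, and every member. Hamp2 is named also as the copy of Hamp. Genes added after their values were seen are Tmprss6, Stat3, Il6ra, Il6st, Bmpr1a, Smad6, Id2, Id3, Atoh8, Creb3l3, Hfe, Cebpa, Urod, Abcb10, Cpox, Ppox, Orm1, Serpina3n, Fga and Fgb. Also added were Il22ra1 after Con A, Hmox1 beyond its change after Con A, Egln3 with the cells against Control and the genes of the rank plots. Promoters are from RefSeq (GRCm38.p6) and transcript sequences from GENCODE M21 (GRCm38). Motif searches for an E-box, an antioxidant response element and NF-kB were also run over the promoter windows of the members. The alternatives were pseudocounts of 10 and 100, quantile normalization, median centring, a mean value of at least 100, no trend in eBayes, the 8 compared mice alone, an unadjusted p, a fold change above 2, the replicate number as a block and each mouse left out in turn. Taking passing genes out of a stratum was added after seeing the data.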

Additional observations from a re-analysis of the deposited data

Results flagged for a closer look

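Within the groups of 4 mice, 3 values of the members stood apart from the rest of their group by Dixon's criterion, which chance meets in about 1 of 20 groups. Lcn2 was at 341028 in Con A + PBS replicate 4, against 72682 in the other mice of that group. Lcn2 was at 58038 in Con A + hWJ-MSCs replicate 2, against 72682 in the others, a difference of 1 rank in its stratum. Hfe2 was at 1624 in Control replicate 1, against 1458 to 1467 in the other Control mice. In the Lcn2 cases the other 3 mice held tied values, so that any difference at all meets the criterion.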

How the results depend on the processing

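The deposited values hold no depth, and near the top of the scale a change is a step in rank among the genes of a stratum, which limits what can be said of Trf, Ftl1, Lcn2 and Fth1, of Cp, Ambp, Hp and Hpx, and also of Hamp and Tfr2, which held readable ranks in every mouse. The counts called after Con A, of 5 members, 68 list genes and 4379 genes, became 41 list genes and 2391 genes at a fold above 2. Against Con A + PBS the counts with the cells, 2 members, 11 list genes and 969 genes, were the least stable. There 1 member was called without a trend and 1 with the 8 compared mice alone, and 3 with an unadjusted p. List genes were 17 with an unadjusted p and 6 at a fold above 2. All genes numbered 614 with a pseudocount of 100, 1697 unadjusted and 353 at a fold above 2. Leaving out single mice gave 1 to 3 members, 1 to 23 list genes and 7 to 1575 genes, with 7 genes without Con A + PBS replicate 1 or Con A + hWJ-MSCs replicate 3, 18 without replicate 2 of the latter, 285 and 563 without Con A + PBS replicates 4 and 3, 506 without Con A + hWJ-MSCs replicate 1, and 1575 without Con A + PBS replicate 2. Against Control the cells gave 7 members (4 to 7 without single mice, 4 without Control replicate 4, 5 at a fold above 2, where Tfrc and Fth1 were lost), 45 list genes (28 at a fold above 2) and 3015 genes (1903 with a pseudocount of 100, 1539 at a fold above 2). The cause of these differences was not tested. The value of Hamp2 between the Con A groups, never called, changed sign with a pseudocount of 100 (-0.029) and without Con A + PBS replicates 2 (-0.33) or 3 (-0.17), and lay between -0.33 and 0.60 over the fits without single mice. Hfe2 between the Con A groups lost its call without a trend (limma adjusted p = 0.0563) and with 8 mice alone (0.0893). Taking out the genes that passed Trf and Ftl1 returns Trf to the top by construction and raises Ftl1, so the loss of their calls there describes the rank steps and is no independent test. Over single genes, 8 settings (both pseudocounts, the mean of at least 100, the centring and quantile steps, no trend, 8 mice alone and the block) kept 235 values on the same side of the call, lost 4 and turned 1, and leaving out a mouse kept 329, lost 24, gained 5 and turned 2.

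Mice with the same replicate number are different animals, and their deviations correlated at -0.118 to 0.375 over 12 pairs, with 4 above 0.1. Between mice of different numbers the correlations ran from -0.385 to 0.141. The highest for the same number were 0.375 (number 2) and 0.244 (number 4) between the Con A groups. Number 4 gave 0.168 between Control and Con A + PBS. Whether mice of the same number shared a condition was not tested. With the replicate number as a block, 1297 genes, 13 list genes and 2 members were called between the Con A groups. Against Control with the cells 6 members were called under the block, where Fth1 was not (0.67, limma adjusted p = 0.0546).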
